A study of Mus musculus with 10 samples.

Results

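Complexes II to V of the respiratory chain were followed in liver RNA of mice with and without the S400D change in HtrA2/Omi, a serine protease of the mitochondrial intermembrane space encoded by Htra2. Genes were taken by symbol: those beginning with Sdha, Sdhb, Sdhc, Sdhd, Uqcr, Uqcc, Cox4, Cox5, Cox6, Cox7, Cox8 or Atp5, and Cyc1. This gave 54 of the 19271 genes in the expression table. Of these, 46 encode subunits and 8 encode assembly or supercomplex factors that share a symbol prefix. Complex II has 4 subunit and 4 assembly genes, complex III 9 and 3, complex IV 16 and 1, and complex V 17 subunit genes.

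The groups were 3 homozygous S400D/S400D males, 1 homozygous S400D/S400D female, 3 heterozygous S400D/WT males and 3 wild-type WT/WT males. All 10 mice were of the C57BL6/N strain and 2 months old, and whole liver was used. The sources used here do not give how the allele was made, the litters or the time of collection. Replicates carry a number in the labels and no origin, and p-values therefore reflect only how these samples vary among themselves.

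Succinate dehydrogenase (complex II) feeds electrons from the citric acid cycle into ubiquinone, the cytochrome bc1 complex (III) passes them to cytochrome c, and cytochrome c oxidase (IV) passes them to oxygen. Complexes III and IV pump protons, and ATP synthase (V) uses the resulting gradient to make ATP. All subunits of complex II are encoded in the nucleus, whereas the other complexes combine nuclear subunits with a few made from mitochondrial DNA, which were not analysed here. Hepatocytes are rich in mitochondria and carry the liver forms of those complex IV subunits that have tissue-specific versions.

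The libraries held 16240441 to 17264289 estimated reads each and 14474 to 14887 genes with at least 1 read. The 54 genes took 0.789% to 1.01% of the reads. Htra2 itself was at 14.5 to 15.6 CPM (counts scaled to library size) in homozygous males, 13.7 CPM in the female, 15.2 to 16.7 CPM in heterozygotes and 12.3 to 17.3 CPM in wild types, which does not check a label that names a protein change. Summed hepatocyte markers reached 117100 to 139300 CPM in homozygous males, 79200 to 104600 CPM in heterozygotes and 98770 to 113000 CPM in wild types. Of these 7 markers 4 were above 0 in homozygous against wild-type males. Without albumin (Alb) the groups overlapped, and the other 6 markers summed to 29878 to 33188 CPM in homozygous males, 29537 to 34878 CPM in heterozygotes and 28711 to 33064 CPM in wild types. Markers of skeletal and heart muscle summed to at most 0.964 CPM, and Ucp1 and the other brown fat markers to at most 0.0586 CPM.

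Levels of different genes were compared in TPM, the deposited transcript abundances scaled to transcript length and to a fixed sum per library. Of the 54 genes, 49 averaged at least 1 TPM over the 9 males. The subunit genes of complex II stood close together, from Sdhb at 305 TPM, the iron-sulfur subunit, over Sdha at 275 TPM, the flavoprotein with the succinate site, to the membrane anchors Sdhc at 219 TPM and Sdhd at 200 TPM. Neighbours in this order overlapped in range, since single males spanned 253 to 377 TPM for Sdhb and 234 to 312 TPM for Sdha. The assembly genes lay well below them. Sdhaf4, which stabilises newly flavinylated Sdha, stood at 43.5 TPM, Sdhaf1 and Sdhaf3, which serve the iron-sulfur subunit, at 28.2 and 13.8 TPM, and the flavinylation factor Sdhaf2 at 10.5 TPM.

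In complex III the highest levels were those of Uqcr11 at 1007 TPM and Uqcr10 at 696 TPM. Uqcrb was at 593 TPM and the hinge protein gene Uqcrh at 523 TPM. The small subunit gene Uqcrq, at 248 TPM (212 to 274 over the males), lay among the genes of the larger proteins, namely the Rieske iron-sulfur protein gene Uqcrfs1 at 238 TPM (201 to 265), the core protein genes Uqcrc1 at 223 TPM (194 to 257) and Uqcrc2 at 182 TPM, and cytochrome c1 (Cyc1) at 211 TPM. Uqcc2, Uqcc3 and Uqcc1, which act in cytochrome b synthesis and early assembly, were at 108, 43.4 and 21.8 TPM.

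Complex IV held the highest level of the 54 genes, Cox7c at 1305 TPM. Cox4i1 at 1252 TPM, Cox6a1 at 1225 TPM, Cox6c at 1156 TPM and Cox6b1 at 1070 TPM followed, and the ranges of these 5 genes over the males overlapped (from 847 to 1532 TPM). Cox8a was at 726 TPM, Cox5b at 645 TPM, Cox5a at 463 TPM, Cox7b at 302 TPM and Cox7a2 at 302 TPM. Cox7a2l, a relative of Cox7a2 that works in supercomplex assembly, was at 138 TPM.

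Where complex IV has versions of a subunit for different tissues, 1 version carried almost all of the liver signal. The heart and muscle form Cox6a2 had 2 reads in all 10 libraries together and the heart and muscle form Cox8b also had 2. The lung form Cox4i2 had 7 reads and the testis form Cox6b2 had 22. Cox7b2, a testis relative of Cox7b, had 0 reads, and 3 reads would correspond to between 0.169 and 0.193 CPM in a single library (counting error only). The heart and muscle form Cox7a1 was the exception, with 131 reads, 4 to 23 in each library, a mean of 10.1 TPM and 3.23% of the summed TPM of Cox7a1 and Cox7a2. The other 4 minor forms each took under 0.1% of the pair they share with the major form, the highest being Cox6b2 with 0.0617%.

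In complex V the c-ring gene Atp5g3 stood at 1221 TPM and Atp5e, the epsilon subunit, at 1064 TPM. The lowest were Atp5pb, subunit b of the peripheral stalk, at 293 TPM and the c-ring gene Atp5g2 at 285 TPM. Of the catalytic head, Atp5b (beta) was at 961 TPM and Atp5a1 (alpha) at 607 TPM. Atp5d (delta) was at 463 TPM and Atp5c1 (gamma) at 372 TPM. Atp5g1, Atp5g2 and Atp5g3 encode the same mature c subunit with different import sequences. Their shares of the summed TPM were 21.2% ± 0.469, 15.8% ± 1.31 and 63.0% ± 1.35 in homozygous males, 20.9% ± 2.60, 15.1% ± 0.960 and 64.1% ± 3.32 in heterozygotes, and 21.9% ± 2.26, 14.1% ± 0.829 and 64.0% ± 1.89 in wild types (SD, n = 3 each). The shares of Atp5g1 and Atp5g3 overlapped between all genotypes. The share of Atp5g2 was 17.3%, 15.2% and 15.0% in homozygous males, 15.4%, 15.9% and 14.0% in heterozygotes and 14.8%, 13.2% and 14.1% in wild types, so homozygotes and wild types just did not overlap, and this was not tested.

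**Figure D1:**
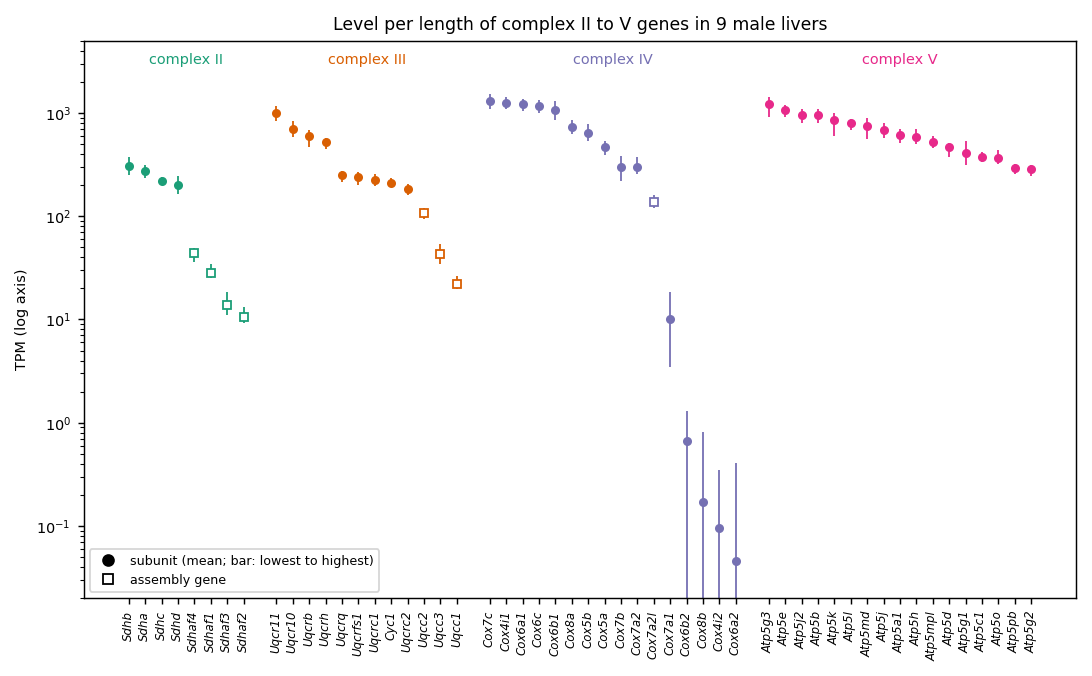
Mean TPM on a log axis of every complex II to V gene with at least 1 read in a male, with bars from the lowest to the highest of the 9 males. Filled circles are subunits and open squares are assembly genes. Subunits of each complex lie above its assembly genes, apart from the 5 minor forms of complex IV subunits at 10.1 TPM and below.

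These genes are short. The effective transcript length, here the length implied by the ratio of reads to FPKM (fragments per kilobase of transcript, scaled to library total), had a median of 443.9 bases over the 49 genes that passed the filter on low counts, against 2625.1 bases over all 12427 genes tested. The medians were 855.9 bases in complex II, 798.9 in complex III, 295.2 in complex IV and 395.7 in complex V. Atp5k, subunit e of complex V, was the shortest at 66.8 bases, and the assembly gene Sdhaf2 the longest at 2824.1 bases. For the shortest genes the TPM rests on a small divisor, so a few bases of difference in fragment length between libraries change it. The implied lengths of long transcripts shifted between libraries over a range of 10.84 bases, and the ranges of homozygous (-0.97 to 3.59), heterozygous (-0.41 to 6.14) and wild-type males (-4.70 to 4.69) overlapped.

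The 54 genes had 110 annotated transcripts, 1 to 11 per gene. Of the 49 genes at 1 TPM or more, 26 had a single transcript. In 42 of these 49 genes, 1 transcript held at least 90% of the gene's TPM. For Atp5a1 and Uqcrc1 the table lists the same transcript at 2 positions with 50% each, and these were summed. Cyc1 was split between a curated transcript with 57.9% and a shorter predicted one with 42.1%. The curated share was 62.1% ± 5.76 in homozygous males, 54.2% ± 3.26 in heterozygotes and 57.4% ± 0.710 in wild types (SD, n = 3 each). The homozygotes were the most scattered, and the difference was not tested. Atp5g1 (75.6% in the leading transcript), Atp5g3 (73.1%), Atp5j (77.1%) and Sdhaf3 (81.8%) were the others.

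RefSeq promoters (GRCm38.p6, 250 bases before to 50 after the start of each gene) were matched for 43 of the 54 genes. Motifs of factors known to act on nuclear respiratory genes were searched on both strands. A gene with more than 1 listed start was counted once if any of its promoters held the motif. The ETS motif CCGGAAG, bound by GABPA, stood in 16 of 43 genes (37.2%). The share was 9.93% of all 27025 genes with a RefSeq promoter, whether or not they were expressed in these livers. The palindromic NRF1 motif stood in 4 of 43 (9.30%, against 1.07%), and a looser form with any base at the first of its central pair stood in 13 of 43 (30.2%, against 5.19%). The YY1 motif stood in 1 (2.33%, against 1.17%). The strict NRF1 matches are also counted in the looser form, and no other pair of these motifs was compared for overlap. By complex, the ETS motif was in 5 of 7 genes of complex II, 2 of 8 of complex III, 3 of 13 of complex IV and 6 of 15 of complex V. The looser NRF1 motif was in 4, 2, 1 and 6 of them. These are matches of letters, not measured binding.

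For each complex a promoter with the most matches is shown, as an example of where they lie, from 150 bases before to 30 bases after the start, 5′ to 3′ on the strand of the gene, with matches to the ETS motif or the looser NRF1 motif on either strand in capitals. The Sdha promoter (chr13:74350211-74350390, minus strand) has 3 NRF1 matches that begin at positions -98, -55 and -10 from the start. The Uqcrc1 promoter (chr9:108936498-108936677, plus strand) has 1 NRF1 match at 6. The Cox6a1 promoter (chr5:115348929-115349108, minus strand) has an NRF1 match at -117 and an ETS match at -16, and the Atp5h promoter (chr11:115419890-115420069, minus strand) an NRF1 match at -141 and an ETS match at -38.
Sdha: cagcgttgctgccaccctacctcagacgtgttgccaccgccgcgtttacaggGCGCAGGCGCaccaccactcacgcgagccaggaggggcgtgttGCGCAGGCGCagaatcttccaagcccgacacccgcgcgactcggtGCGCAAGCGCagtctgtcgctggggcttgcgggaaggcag
Uqcrc1: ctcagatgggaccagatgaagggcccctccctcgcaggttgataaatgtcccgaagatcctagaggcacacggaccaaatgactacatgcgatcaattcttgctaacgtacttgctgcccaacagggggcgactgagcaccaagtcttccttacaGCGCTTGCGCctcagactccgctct
Cox6a1: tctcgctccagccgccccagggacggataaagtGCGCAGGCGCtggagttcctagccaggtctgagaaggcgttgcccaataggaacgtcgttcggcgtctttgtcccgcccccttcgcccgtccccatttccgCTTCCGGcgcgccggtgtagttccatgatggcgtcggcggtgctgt
Atp5h: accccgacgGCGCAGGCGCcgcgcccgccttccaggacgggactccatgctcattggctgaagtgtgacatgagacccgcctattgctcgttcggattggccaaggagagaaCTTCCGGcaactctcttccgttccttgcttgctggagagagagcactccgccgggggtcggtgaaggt

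Homozygous against wild-type males compares livers with no wild-type copy to livers without the S400D change. These groups also differed in clock genes, as given below. Nearly all genes of complexes III, IV and V had slightly lower counts in the homozygotes, as did 6 of 8 genes of complex II. Of the 49 genes tested, 44 had a log2 fold change below 0, against 49.3% of all genes tested, with a median of -0.21 against 0.00 for all genes. None of these differences passed the test. edgeR's quasi-likelihood test called 0 of the 49 genes at an adjusted p of 0.05, and 0% of all 12427 genes. The lowest adjusted p among the 49 was 0.237, and over all genes it was 0.133. At an unadjusted p under 0.05, 11 of the 49 were lower (8.08% of all genes, and 23% of the genes with an effective transcript length under 600 bases) and 0 were higher (6.82% of all genes). limma-voom called 0 genes of the whole table and DESeq2 called 308, of which 0 were among the 49. In bulk liver RNA, fewer cells of a type and less RNA per cell cannot be told apart.

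Short transcripts as a class had lower counts in the homozygous males. Among all 526 tested genes with an effective length under 600 bases, 80.2% were below 0 with a median of -0.20, while 28 of the 30 short respiratory genes were below 0 with a median of -0.22. The bin from 600 to 1500 bases held 13 respiratory genes, 11 of them below 0 with a median of -0.16, against 63.7% and -0.09 for all genes of that length. Between 1500 and 3000 bases 5 of 6 were below 0 with a median of -0.11, against 51.6% and -0.01. With a smooth trend on length removed from each library, 33 of the 49 stayed below 0 and the median was -0.05. On log2(TPM + 1), where the median of all genes was itself at 0.13, 31 of the 49 were below 0 with a median of -0.06. Across all 12427 genes the fold change and the length had a Spearman rho of 0.25, given as a description of genes that share the same libraries.

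**Figure D2:**
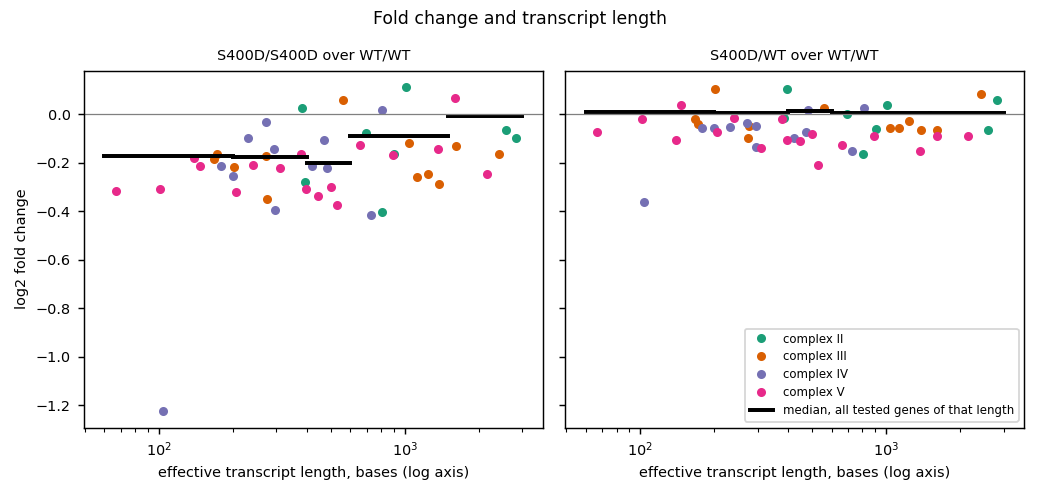
Log2 fold change of the 49 tested genes against effective transcript length (log axis), for homozygous over wild-type males (left) and heterozygous over wild-type males (right). Black bars are the median of all tested genes in 5 length bins, which lie at -0.17, -0.18, -0.20, -0.09 and -0.01 on the left and near 0 on the right.

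The libraries differed within the homozygous group. Relative to the mean of the 9 males, the median log2 CPM of the 49 genes was at -0.27, -0.11 and 0.02 in homozygous males 1, 2 and 3. It was at 0.06, -0.09 and 0.10 in the heterozygotes and at 0.06, 0.08 and 0.15 in the wild types. Homozygous male 1 was the lowest of all, and homozygous male 3 lay among the heterozygotes and below the wild types. All 526 short genes gave -0.20, -0.11 and -0.04 in homozygous males, 0.10, 0.05 and 0.07 in heterozygotes and 0.05, 0.04 and 0.10 in wild types. Without homozygous male 1 the median fold change of the 49 against wild type was -0.13, with 4 genes lower at an unadjusted p under 0.05. That count was 21 without homozygous male 3 and 1 without wild-type male 3.

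Clock genes also differed between libraries. The clock activator Arntl was at 17.4, 26.1 and 38.1 CPM in homozygous males, 1.17, 31.5 and 2.59 CPM in heterozygotes and 2.64, 2.45 and 4.25 CPM in wild types. The clock output gene Dbp was at 4.63, 12.9 and 1.27 CPM in homozygous males, 247, 6.02 and 105 CPM in heterozygotes and 129, 148 and 158 CPM in wild types. All 3 homozygous males and heterozygous male 2 had high Arntl and low Dbp. All wild types had low Arntl and high Dbp, so genotype and clock state cannot be told apart in homozygous against wild-type males. The Kupffer cell markers summed to 502 to 531 CPM in homozygous males, 230 to 539 CPM in heterozygotes and 185 to 576 CPM in wild types. The sinusoidal endothelial markers summed to 258 to 264 CPM, 167 to 247 CPM and 114 to 277 CPM, in the same order of groups. For the stellate cell markers the sums were 241 to 424 CPM, 216 to 338 CPM and 106 to 281 CPM. In homozygous against wild-type males 12 of 12, 9 of 9 and 6 of 7 of these markers were above 0. Higher at an unadjusted p under 0.05 were 2, 2 and 3 of them, against 6.82% of all genes, and edgeR called 0. The part of the clock state, of length and of these cell types in the differences was not tested.

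**Figure D3:**
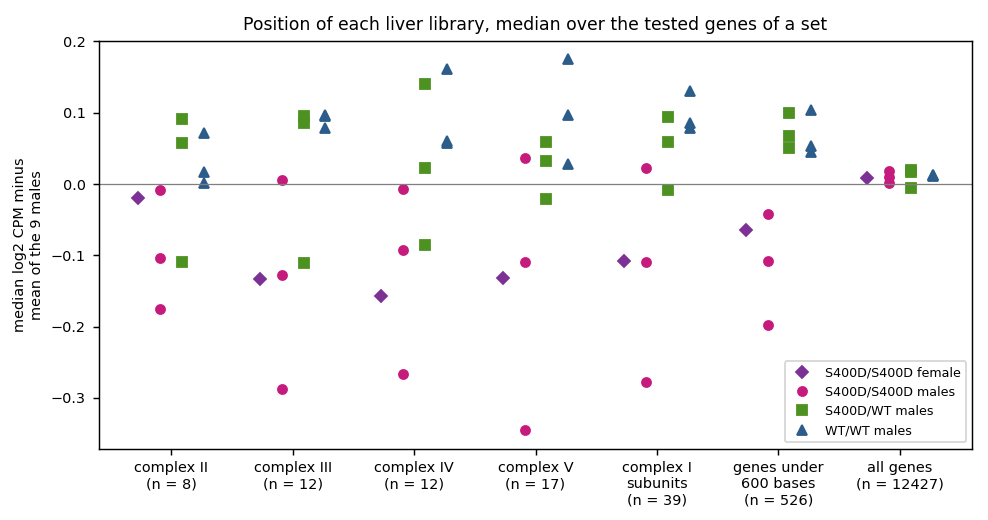
Median over each gene set of the log2 CPM of a library minus the mean of the 9 males, with 1 point per liver and groups from left to right as in the legend. Homozygous male 1 is the lowest point of every complex and of the 526 genes under 600 bases, and all tested genes lie within 0.02 of 0.

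Of the 8 genes of complex II 6 were below 0, with a median log2 fold change of -0.09 (-0.065 with the length trend removed), and the 2 anchor subunits lay on opposite sides of 0. Sdhb (chr4:140961271-140979198, gene 67680) was at 137, 155 and 174 CPM in homozygous males, 198, 176 and 176 CPM in heterozygotes and 185, 204 and 227 CPM in wild types. All homozygotes lay below all wild types, and the heterozygotes lay between and overlapped the wild types. The log2 fold change of homozygotes over wild types was -0.40 (SE 0.13, edgeR adjusted p = 0.240), the most negative value of complex II, and it was -0.27 with the length trend removed.

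Sdhaf4 (chr1:23995939-24005640, gene 68002) was at 9.42, 11.6 and 11.3 CPM in homozygous males, 15.7, 13.0 and 13.5 CPM in heterozygotes and 13.4, 11.8 and 14.0 CPM in wild types. The homozygotes did not overlap either other genotype. The log2 fold change was -0.28 against wild types (SE 0.13, edgeR adjusted p = 0.356) and -0.38 against heterozygotes (SE 0.13, edgeR adjusted p = 0.196). These values were -0.108 and -0.205 with the length trend removed. Sdhc was at 122, 136 and 154 CPM in homozygous males, 152, 137 and 154 CPM in heterozygotes and 149, 159 and 153 CPM in wild types, a log2 fold change of -0.16 of homozygotes over wild types (SE 0.11, edgeR adjusted p = 0.505) with overlapping groups. Its value was -0.05 with the length trend removed.

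Sdhd (chr9:50596340-50603849, gene 66925), named here after its values were seen, was the 1 respiratory gene whose homozygous values all lay above the wild-type ones (9.27% of all genes did). It was at 165, 147 and 150 CPM in homozygous males, 154, 135 and 151 CPM in heterozygotes and 145, 142 and 142 CPM in wild types. The gap between the nearest values was small, and the log2 fold change was 0.11 (SE 0.10, edgeR adjusted p = 0.592). With the length trend removed it was 0.215 (SE 0.098, edgeR adjusted p = 0.392). By contrast 17 of the 49 genes had all homozygous values below all wild-type ones, against 11.5% of all genes and 33.5% of the genes under 600 bases.

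In complex III 11 of 12 genes were below 0, among them all 9 subunits, with a median of -0.18 (-0.058 with the length trend removed, and -0.293 without homozygous male 3). Uqcrb (chr13:66900576-66905350, gene 67530), a small subunit beside cytochrome b, was at 85.6, 102 and 120 CPM in homozygous males, 126, 124 and 131 CPM in heterozygotes and 130, 126 and 137 CPM in wild types. The homozygotes lay below every other male, with a log2 fold change of -0.35 over wild types (SE 0.13, edgeR adjusted p = 0.268) and -0.17 with the length trend removed. Uqcrc1 (chr9:108936648-108949641, gene 22273), the core protein gene whose promoter is printed above, was at 180, 208 and 213 CPM in homozygous males, 249, 204 and 250 CPM in heterozygotes and 246, 242 and 248 CPM in wild types. The wild types lay close together and above all homozygotes, and heterozygous male 2 lay among the homozygotes. The log2 fold change was -0.29 (SE 0.12, edgeR adjusted p = 0.300).

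Cyc1 (chr15:76343513-76346260, gene 66445) had the same arrangement. It was at 146, 156 and 167 CPM in homozygous males, 201, 157 and 183 CPM in heterozygotes and 184, 191 and 187 CPM in wild types, with a log2 fold change of -0.26 over wild types (SE 0.11, edgeR adjusted p = 0.328). Uqcr11, the most abundant complex III transcript per length, was at 92.3, 118 and 130 CPM in homozygous males, 126, 120 and 136 CPM in heterozygotes and 130, 132 and 126 CPM in wild types. Homozygous males 1 and 2 lay below the other groups and male 3 among them, and the log2 fold change of -0.19 (SE 0.13, edgeR adjusted p = 0.521) was 0.00 with the length trend removed.

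In complex IV 11 of 12 tested genes were below 0, all 11 tested subunits among them, with a median of -0.21 (-0.029 with the length trend removed). That median was -0.123 without homozygous male 1 and -0.143 without wild-type male 3. Cox5b (chr1:36691487-36693388, gene 12859), a zinc-binding subunit on the matrix side, had the lowest adjusted p of the 49 genes. It was at 105, 112 and 136 CPM in homozygous males, 152, 136 and 163 CPM in heterozygotes and 151, 160 and 154 CPM in wild types. Homozygotes lay below all wild types, with a log2 fold change of -0.39 (SE 0.12, edgeR adjusted p = 0.237), and homozygous male 3 overlapped the heterozygotes, against which the log2 fold change was -0.35 (SE 0.12, edgeR adjusted p = 0.203). With the length trend removed the value over wild types was -0.22.

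Cox7b (chrX:106015700-106022450, gene 66142), a small membrane subunit, was at 108, 151 and 153 CPM in homozygous males, 163, 151 and 181 CPM in heterozygotes and 171, 173 and 206 CPM in wild types. Its log2 fold change was -0.42 (SE 0.15, edgeR adjusted p = 0.278) with no overlap between homozygotes and wild types. Cox7a1 was at 0.457, 0.234 and 0.663 CPM in homozygous males, 0.922, 0.767 and 0.789 CPM in heterozygotes and 0.938, 0.837 and 1.42 CPM in wild types. Its 3 homozygous libraries held 8, 4 and 11 reads and the wild types 16, 13 and 23, so its log2 fold change of -1.22 (SE 0.40, edgeR adjusted p = 0.254) rests on few reads. Cox7c was at 149, 150 and 171 CPM in homozygous males, 163, 171 and 191 CPM in heterozygotes and 174, 172 and 202 CPM in wild types. The nearest homozygous and wild-type values differed by under 1 CPM, and the log2 fold change was -0.22 (SE 0.11, edgeR adjusted p = 0.408), or -0.02 with the length trend removed.

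In complex V 16 of 17 genes were below 0, with a median of -0.22 (-0.083 with the length trend removed). Leaving out 1 animal, it ranged from -0.327 without homozygous male 3 to -0.133 without homozygous male 1. Atp5j2 (chr5:145183704-145191541, gene 57423), subunit f of the membrane part, was at 109, 129 and 145 CPM in homozygous males, 149, 150 and 156 CPM in heterozygotes and 156, 160 and 163 CPM in wild types. The groups did not overlap between homozygotes and either other genotype, with a log2 fold change of -0.32 over wild types (SE 0.11, edgeR adjusted p = 0.263). Atp5j (chr16:84827871-84835857, gene 11957), coupling factor 6 of the peripheral stalk, was at 155, 171 and 200 CPM in homozygous males, 197, 192 and 217 CPM in heterozygotes and 214, 214 and 226 CPM in wild types. Its log2 fold change was -0.31 (SE 0.12, edgeR adjusted p = 0.281).

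Atp5o (chr16:91925223-91931630, gene 28080), the stalk protein that confers oligomycin sensitivity, was at 107, 114 and 134 CPM in homozygous males, 139, 136 and 138 CPM in heterozygotes and 132, 144 and 162 CPM in wild types. Homozygous male 3 overlapped wild-type male 1, and the log2 fold change was -0.30 (SE 0.12, edgeR adjusted p = 0.291). Atp5g3 was at 274, 373 and 399 CPM in homozygous males, 431, 345 and 449 CPM in heterozygotes and 416, 450 and 458 CPM in wild types, with a log2 fold change of -0.34 (SE 0.16, edgeR adjusted p = 0.368). With the length trend removed, Atp5j2, Atp5j and Atp5o each stood at -0.14 and Atp5g3 at -0.18. The 5 tested genes not below 0, named after their values were seen, were Sdhd, Sdhaf3, Uqcc3, Cox7a2l and the beta subunit gene Atp5b. With the length trend removed they stood at 0.215, 0.197, 0.221, 0.146 and 0.111, in this order. Atp5b was at 1188, 1147 and 1219 CPM in homozygous males, 1109, 948 and 1134 CPM in heterozygotes and 1094, 1120 and 1190 CPM in wild types, with overlap between homozygotes and wild types.

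**Figure D4:**
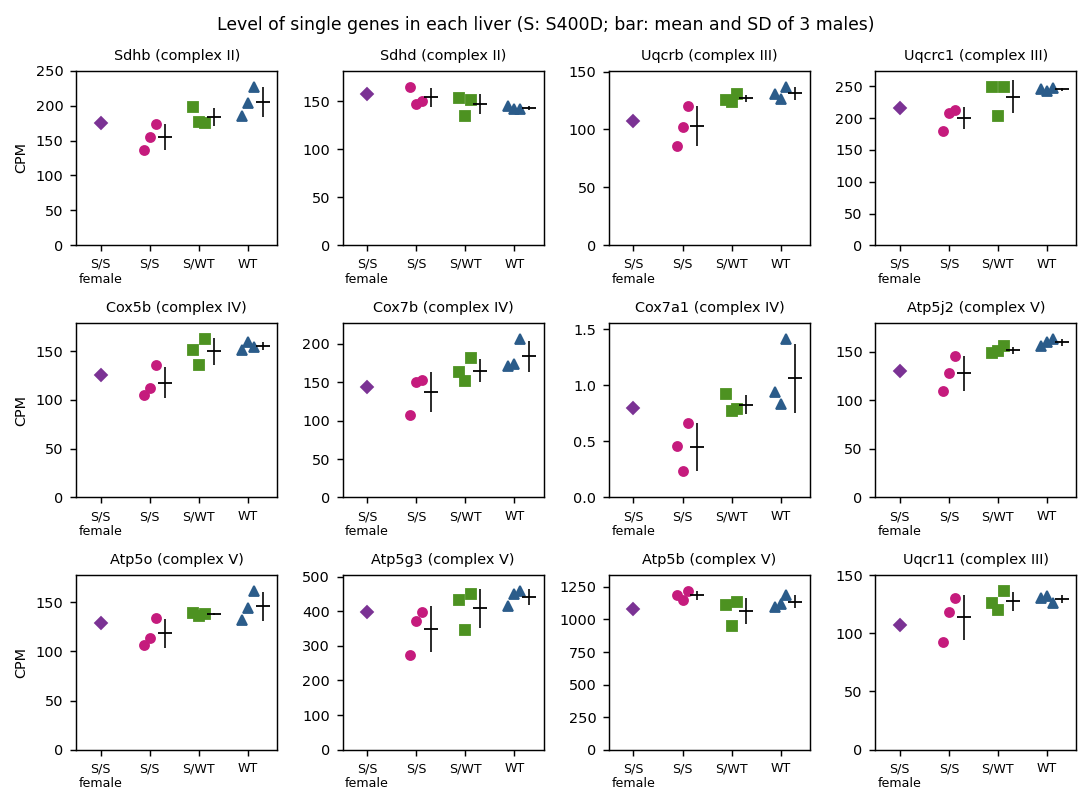
CPM of 12 genes in each liver, with 1 point per animal and the mean and SD of the 3 males beside them. From left to right in each panel stand the S400D/S400D female, the S400D/S400D males, the S400D/WT males and the WT/WT males. In Sdhb, Uqcrb, Cox5b and Atp5j2 all homozygous males lie below all wild types, while Sdhd and Atp5b do not show this order.

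Summed over the subunits of a complex, homozygous male 1 again stood lowest in CPM. Complex II subunits summed to 879, 978 and 1016 CPM in homozygous males, 1023, 899 and 1048 CPM in heterozygotes and 1056, 1020 and 1039 CPM in wild types. Complex V subunits summed to 3840, 4314 and 4635 CPM in homozygous males, 4602, 4091 and 4734 CPM in heterozygotes and 4562, 4773 and 5031 CPM in wild types. Complex III subunits summed to 1214, 1331 and 1465 CPM in homozygous males and 1545, 1534 and 1581 CPM in wild types. Those of complex IV summed to 1601, 1751 and 2009 CPM and to 1997, 1979 and 2142 CPM. On CPM homozygotes and wild types thus did not overlap in complexes II and III and overlapped in IV and V. On TPM the groups overlapped in every complex. The median of all genes on log2(TPM + 1) was itself at 0.135 for homozygous over wild-type males. Complex V summed to 9653, 11333 and 11736 TPM in homozygous males, 10336, 10481 and 12457 TPM in heterozygotes and 11654, 10486 and 12491 TPM in wild types.

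**Figure D5:**
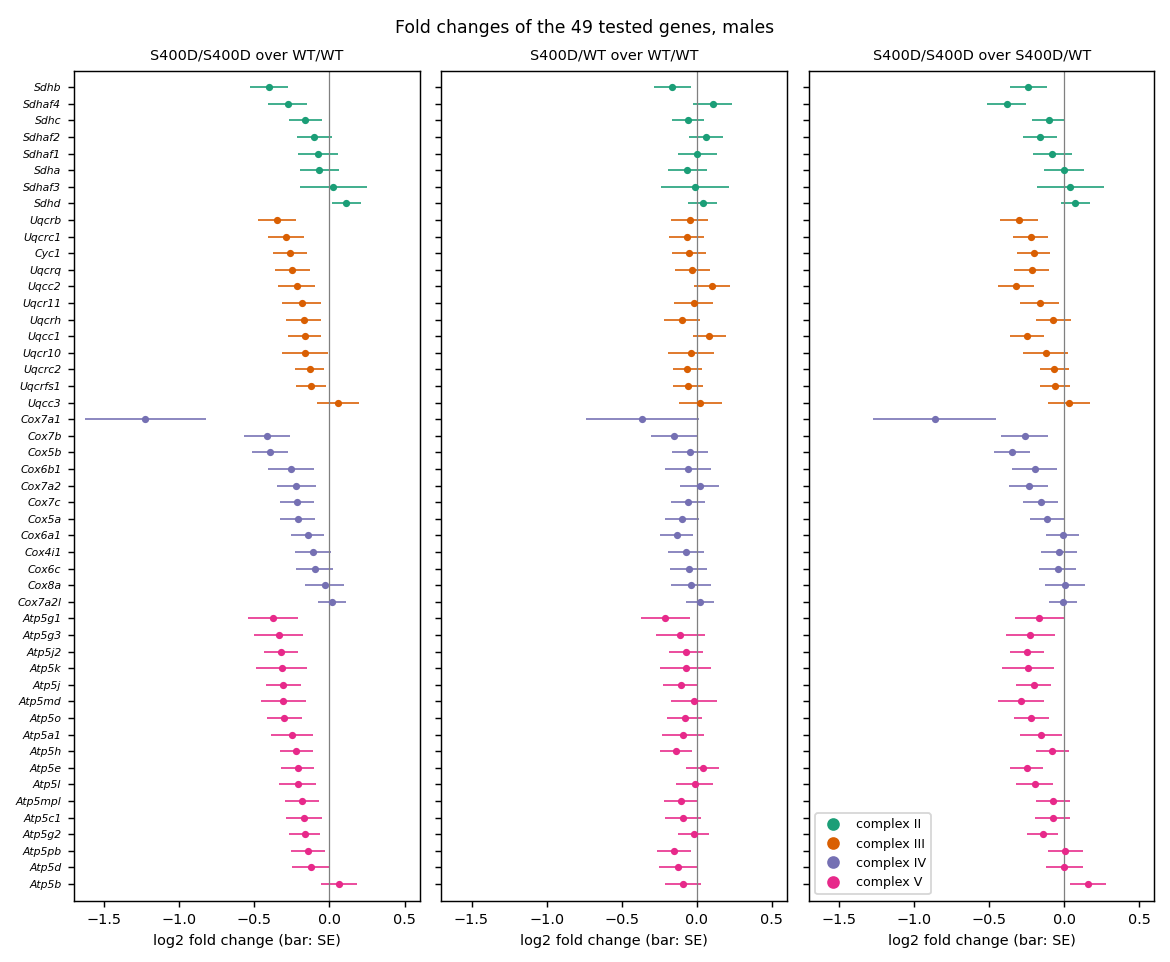
Log2 fold change with its SE for the 49 tested genes in the 3 comparisons between male genotypes, coloured and grouped by complex. In the left panel 44 of 49 points lie below 0, in the middle panel 39 and in the right panel 42, and 0 genes passed the test in any of them.

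Heterozygous against wild-type males compares livers with 1 mutant copy to livers without the S400D change. The respiratory genes lay close to the wild-type level. Of the 49, 39 were below 0 (48.4% of all genes tested), with a median of -0.06 against 0.01 for all genes, 0 passed the edgeR test (0% of all genes) and 0 were under an unadjusted p of 0.05 (2.52% of all genes lower and 1.67% higher). Of all genes under 600 bases 47% were below 0, 2.09% were lower at an unadjusted p under 0.05, and 4.18% lay below the wild types without overlap. The lowest adjusted p among the 49 was 0.972. The count below 0 depended on scaling, and all genes moved with it. With library size alone 16 of 49 were below 0 with a median of 0.022, while the median of all genes was 0.086. Removing the length trend left 40 of 49 below 0, with a median of -0.062. In the main fit 38 of 41 tested subunit genes and 1 of 8 assembly genes were below 0. Without heterozygous male 2 the median of the 49 genes was -0.01 with 29 below 0. It was -0.099 without heterozygous male 3 and -0.089 without wild-type male 2.

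Single genes gave small values in this comparison. Sdhb had a log2 fold change of -0.16 (SE 0.13, edgeR adjusted p = 0.972). Cox6a1, the liver form of a regulatory subunit of complex IV, was at 267, 229 and 274 CPM in heterozygotes and 288, 275 and 283 CPM in wild types, just without overlap (log2 fold change -0.13, SE 0.11, edgeR adjusted p = 0.972). Atp5pb was at 282, 263 and 305 CPM in heterozygotes and 306, 314 and 325 CPM in wild types, also just without overlap (-0.15, SE 0.11, edgeR adjusted p = 0.972). Uqcc2, a factor for cytochrome b synthesis, was at 17.8, 18.4 and 16.6 CPM in heterozygotes and 16.8, 16.2 and 16.3 CPM in wild types, with overlap (0.10, SE 0.12, edgeR adjusted p = 0.972). In all, 3 of the 49 genes lay below the wild types without overlap (5.80% of all genes) and 1, Atp5e, above them (4.56%).

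Homozygous and heterozygous males differ by 1 copy. Of the 49 genes 42 were below 0 (49.6% of all genes tested and 80.4% of the genes under 600 bases), with a median of -0.16 against 0.00 for all genes. edgeR called 0 of them (0% of all genes), and 5 were lower at an unadjusted p under 0.05 (8.92% of all genes, 25.9% of those under 600 bases) and 0 higher (8.25%). With the length trend removed 25 of 49 were below 0 and the median was 0.00. Without homozygous male 1 the median was -0.06 with 0 lower at an unadjusted p under 0.05, and without heterozygous male 3 it was -0.100. That count was 1 without homozygous male 2 or heterozygous male 1, 2 without heterozygous male 3, 3 without wild-type male 1 and 15 without homozygous male 3. This comparison shares its homozygous animals with the first one.

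Uqcc2 was at 12.6, 12.9 and 16.7 CPM in homozygous males against the heterozygous values above, a log2 fold change of -0.32 (SE 0.12, edgeR adjusted p = 0.230) with homozygous male 3 overlapping. Atp5e was at 89.8, 99.8 and 118 CPM in homozygous males, 123, 121 and 122 CPM in heterozygotes and 120, 117 and 120 CPM in wild types. Its log2 fold change over heterozygotes was -0.25 (SE 0.11, edgeR adjusted p = 0.286), without overlap. Over heterozygotes, Uqcc2 stood at -0.119 and Atp5e at -0.038 once the length trend was removed. Genes without overlap numbered 7 below (11.7% of all genes, 34.8% of those under 600 bases) and 1 above, Atp5b (10.7%). Taking the 3 genotypes in a single F test, edgeR called 0 of the 49 and 0 of all genes, and 6 of the 49 had an unadjusted p under 0.05 (14.1% of all genes).

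The homozygous female had no female control and is set only beside the homozygous males. Its median over the 49 genes was -0.13, against -0.27, -0.11 and 0.02 in the 3 homozygous males. In 34 of 49 genes the female lay within the range of these males. It lay above them in 7 genes (27.2% of all genes) and below them in 8 (27.4%). Complex V was within the range in 14 of 17 genes. Sdhb was at 176 CPM in the female, against 137 to 174 CPM in the homozygous males, and Cyc1 at 146 CPM, against 146 to 167 CPM. The female had low Arntl (1.59 CPM) and high Dbp (205 CPM), unlike the homozygous males.

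Other genes of the pathway were taken from lists of assembly factors, electron carriers and regulators. Of 37 tested assembly factors of complexes II to V, 4 of them the Sdhaf genes above, 30 were below 0 in homozygous against wild-type males (49.3% of all genes), with a median of -0.11. edgeR called 0 of them, and 5 were lower at an unadjusted p under 0.05 (8.08% of all genes). Higd1a, an inner membrane protein that interacts with complexes III and IV, was at 38.5, 38.8 and 44.5 CPM in homozygous males, 48.8, 55.5 and 46.0 CPM in heterozygotes and 45.8, 56.2 and 54.6 CPM in wild types (log2 fold change over wild types -0.36, SE 0.12, edgeR adjusted p = 0.245). Cox20, a chaperone of a mitochondrially encoded complex IV subunit, was at 11.6, 13.1 and 12.8 CPM in homozygous males, 18.9, 17.9 and 16.6 CPM in heterozygotes and 14.2, 17.6 and 15.7 CPM in wild types (-0.34, SE 0.11, edgeR adjusted p = 0.254). Both were lowest in the homozygotes with no overlap.

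Among 18 genes of ubiquinone synthesis and other electron carriers, 16 were below 0 (49.3% of all genes) with a median of -0.13, and edgeR called 0. Coq7, a hydroxylase of ubiquinone synthesis, was at 10.5, 13.2 and 12.4 CPM in homozygous males, 22.8, 15.8 and 19.6 CPM in heterozygotes and 17.8, 23.5 and 18.5 CPM in wild types. Its log2 fold change of -0.72 (SE 0.17, edgeR adjusted p = 0.167) passed only in DESeq2 (adjusted p = 0.0227). Coq2, which attaches the side chain to the ring of ubiquinone, was at 23.1, 28.7 and 26.6 CPM in homozygous males, 35.4, 29.99 and 35.6 CPM in heterozygotes and 35.1, 35.2 and 28.9 CPM in wild types (-0.34, SE 0.12, edgeR adjusted p = 0.277).

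Among 12 regulators of respiratory genes, 5 were below 0 (49.3% of all genes) with a median of 0.07, and the 2 coactivators with the smallest p lay on opposite sides. Ppargc1b was at 10.4, 14.0 and 6.63 CPM in homozygous males, 17.9, 15.5 and 19.8 CPM in heterozygotes and 20.6, 16.1 and 30.5 CPM in wild types, a log2 fold change of -1.11 over wild types (SE 0.29, edgeR adjusted p = 0.206, DESeq2 adjusted p = 0.0208). Ppargc1a was at 16.9, 14.1 and 19.0 CPM in homozygous males, 4.67, 8.68 and 7.55 CPM in heterozygotes and 12.9, 11.9 and 9.60 CPM in wild types, a log2 fold change of 0.54 over wild types (SE 0.22, edgeR adjusted p = 0.302). The heterozygotes lay below both other genotypes without overlap. The log2 fold change was 1.26 for homozygotes over heterozygotes (SE 0.23, edgeR adjusted p = 0.104). For heterozygotes over wild types it was -0.72 (SE 0.23, edgeR adjusted p = 0.972). In heterozygous against wild-type males 12 of 37 assembly factors, 9 of 18 electron carriers and 6 of 12 regulators were below 0 (48.4% of all genes), and edgeR called 0. In homozygous against heterozygous males these counts were 30, 15 and 5 (49.6% of all genes), again with 0 called.

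Complex I is the entry point for NADH. Of its 39 tested nuclear subunit genes 36 were below 0 in homozygous against wild-type males (49.3% of all genes), with a median of -0.23 and 0 called by edgeR. The difference between complex I and the others was not tested.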

How the data were processed

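Poly(A) RNA of 10 livers was sequenced, per the labels' protocols. The deposited table gives estimated counts, FPKM and TPM for 77712 RefSeq transcripts, as the authors computed them. The estimated (expected) counts are not normalised. The authors scaled the FPKM values to transcript length and library total, and the TPM values to a fixed sum per library. HISAT, Bowtie2 and GRCm38.p6 are named in the submitters' processing notes, and the sources used here give neither the counting program nor its use of strand.

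Transcripts were summed by gene identifier to 19271 genes, 19214 of them matched to RefSeq. Sums were rounded to whole reads (94.5% of the nonzero ones were whole to within 0.05). A joint fit of the 9 males had genotype as its single term (6 residual degrees of freedom), by edgeR 4.0.16 in R 4.3.3: TMM factors, its filter on low counts (12427 genes kept), the two-sided quasi-likelihood test and Benjamini-Hochberg adjustment over all genes, threshold 0.05. The filter kept 49 of the 54 genes and dropped Cox4i2, Cox6a2, Cox6b2, Cox7b2 and Cox8b. CPM use TMM factors over all 10 libraries. The female entered no test.

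Genes described singly were, in each complex, the 3 with the smallest p in homozygous against wild-type males, the 1 with the smallest p in the other comparisons, and the 1 with the highest TPM; of each pathway list, the 2 with the smallest p. The members and lists were chosen with earlier results of these data known, so no list was tested. Alternatives were DESeq2 1.42.0, limma-voom (limma 3.58.1), other scalings, filters and units, a length trend removed from each library (lowess, span 0.3), a replicate block, all 10 samples, only 2 groups and omission of each animal. The 3 testis markers looked up by symbol (Prm1, Prm2 and Tnp1) were not among the genes of the expression table and gave no values.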

Additional observations from a re-analysis of the deposited data

How the results depend on the processing

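With all 9 males, edgeR and limma-voom called 0 genes of the table in each comparison, and 0 respiratory genes were called under any alternative run. DESeq2 called 308 genes in homozygous against wild-type males, 6 in heterozygous against wild-type males, 529 in homozygous against heterozygous males and 473 over the 3 genotypes. Leaving out 1 animal gave 0 to 18 (18 without wild-type male 1, 2 without homozygous male 2), 0 to 0, 0 to 6 (6 without homozygous male 2) and 0 to 1 calls (1 without wild-type male 1).

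The medians moved on log2(TPM + 1) and with the length trend removed. On log2(TPM + 1) the median of the 49 genes was -0.056 for homozygous over wild-type and -0.021 for homozygous over heterozygous males. The medians of all genes on that scale were themselves at 0.135 and 0.106. On log2(FPKM + 1), which is also scaled to length, the 49 genes gave -0.165 and -0.156, and all genes 0.036 and -0.021. By complex the pairs on log2(TPM + 1) were 0.051 and 0.035 (II), -0.031 and -0.059 (III), -0.052 and 0.010 (IV), and -0.067 and -0.045 (V). With the length trend removed the pairs were -0.055 and -0.002 for the 49 genes, -0.065 and -0.001 (II), -0.058 and -0.069 (III), -0.029 and 0.059 (IV), and -0.083 and -0.006 (V). Uqcr11 turned to 0.004 with the length trend removed, the 1 change of sign among 659 alternative values of 30 single-gene results. Those genes were mostly named for a small p or a high TPM, so their signs do not stand for the others. Of all 49 genes, 44 were below 0 in homozygous over wild-type males in the main fit and 33 with the length trend removed.

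Counts below 0 out of 49 were 16 (library size alone) and 23 (either FPKM scale) for heterozygous over wild-type males, and 27 (TPM) and 25 (length trend removed) for homozygous over heterozygous males. For heterozygous over wild-type males the median of all genes moved as well. It was 0.086 with library size alone and 0.062 or 0.071 on the FPKM scales, against 0.007 in the main fit. Leaving out 1 animal, medians ranged from -0.281 to -0.127 for the 49 genes and from -0.293 to -0.130 for complex III in homozygous over wild-type males, and from -0.059 to 0.086 for complex II in heterozygous over wild-type males (0.086 without heterozygous male 2). The causes were not tested. Limits of 400 or 1000 bases, chosen after seeing the data, gave the short genes a median of -0.177 or -0.156 in homozygous over wild-type males.

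Same-numbered males did not deviate together: of 9 correlations, from -0.428 to 0.187, only 2 exceeded 0.1. Differently numbered males gave correlations from -0.333 to 0.437. With 3 animals a group, these values cannot decide whether same-numbered males shared a litter or a day of collection. A fit with the replicate block called 0 genes, and the medians of the 49 genes were -0.212, -0.060 and -0.157. At the depth of these libraries Cox7a1 and the minor complex IV forms are limited by counting.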
